A study of Saccharomyces cerevisiae YPS1009 with 40 samples.

Results

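The data describe 50 nuclear genes for mitochondrial ribosomal proteins in the wild yeast strain YPS1009 and in 4 derivatives of it that each carry an extra copy of 1 chromosome. The genes were chosen by name, as the nuclear genes called MRPL, MRPS or MRP, and are 50 of the 6714 genes counted, 36 of the large subunit and 14 of the small subunit. Of these, 49 reached the minimum of 10 counts in at least 2 libraries. The exception was MRPL38 (YKL170W), a protein of the large subunit with 95 counts over all 40 libraries and never more than 10 in one, and it entered no test.

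RNA was read in 5 haploid strains: a euploid strain with HO deleted by the HphMX marker, YPS1009_Chr12 with the same deletion, and YPS1009_Chr4, YPS1009_Chr14 and YPS1009_Chr15, which carry the allele ho-Δ1 instead. Strain and HO allele therefore cannot be told apart for these 3. Cells grew in YPD at 30 °C and were taken in log phase and after 1, 3 and 7 days, labelled 24, 72 and 168 hours, with 2 cultures for each of the 20 groups. Each chromosome gain is represented by 1 strain. The p-values rest on the spread between the 2 samples of a group, estimated for each gene over all 20 groups together. They do not measure the spread of the 2 compared groups alone.

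Mitochondrial ribosomes are built from many proteins encoded in the nucleus and ribosomal RNA encoded in the mitochondrial genome, and they make a small set of hydrophobic respiratory chain subunits inside the organelle. The nuclear messages are translated in the cytosol, in part at the surface of mitochondria. In budding yeast many of them are bound by Puf3, a Pumilio-family protein that acts on their stability, translation and localisation and recognises a short motif starting with TGTA after the coding sequence.

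That motif was found after the stop codon of most of the genes. The letters TGTANATA were searched on the sense strand in the 200 bases after each stop codon of the RefSeq sequence of the reference strain S288c (R64), which is not the genome of YPS1009. Of the 50 genes, 46 (92%) held at least 1 match, beside 822 of all 6008 nuclear protein-coding genes (13.7%). All 14 small subunit genes and 32 of the 36 large subunit genes (88.9%) had a match. There were 54 matches, with 38 genes holding 1 and 8 genes holding 2. The median match began 54 bases after the stop codon, the nearest 8 and the farthest 165, and 48 of the 54 began within 100 bases. TGTAAATA made up 27 of them, TGTATATA 14, TGTACATA 12 and TGTAGATA 1. MRPL9, MRPL19, MRPL31 and MRPL44, all of the large subunit, held none, which says only that these letters are not in this window. Windows of 30 bases around the match, 5′ to 3′ with the match in capitals, are shown for 7 genes that the results turn on, first 4 that fell in euploid by day 3 and then 3 that rose:
MRPL7: cccattcgtcaTGTAAATAtataaactgta
MRPL4: accctctctccTGTAAATAtatatatatat
MRPL32: aaacttaagccTGTATATAgaaacttaatt
MRP4: taacctaaactTGTACATAtgcccatatat
MRPS17: gcactacactcTGTAAATAtatacaactac
MRPL24: tggttttccccTGTATATAaaaaagcatat
MRPL28: ctgtctcctgcTGTAAATAactgatgatca
Genes on both sides of the split carried the motif, but windows could be shown only for genes with a match. Of the genes without one, MRPL19 and MRPL31 rose in euploid by day 3, MRPL44 fell and MRPL9 was not called. MRPL24 and MRPL28 each held a second match farther on.

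The libraries held between 725316 and 7036849 counts, with medians of 5458616 (log phase), 2725128 (day 1), 1383340 (day 3) and 1261823 (day 7). The median count of a member therefore ran from 140.5 to 405 across log-phase libraries but only from 4.5 to 90 at day 7, and up to 8 of the 50 genes had no count in a day 7 library. Genes of the duplicated chromosome lay above the rest by 0.74 to 1.29 on the log2 scale in each of the 32 aneuploid libraries, as medians against euploid. The strain list gives all 5 strains as MATa. In log phase and at day 1, however, the first culture of YPS1009_Chr15 held 8604 to 25467 counts on 3 α-specific genes and 176 to 216 on 5 a-specific genes, whereas the other 18 libraries of these times held 79 to 177 and 607 to 14843. The 2 cultures labelled YPS1009_Chr15 therefore differed in the transcripts of mating type, and results for this strain are also given without the first culture. The spike-in cells of the study had no rows in the count table, so every difference is relative to the yeast RNA of the same library, scaled by the trimmed mean of M-values (TMM). A gene that kept its share may still have fallen per cell, and fewer cells and less RNA per cell cannot be told apart.

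The share of all counts on the 50 genes was low and moved in opposite directions in euploid and YPS1009_Chr12 between log phase and day 1. In euploid it was 0.236% and 0.216% in log phase, and 0.127% and 0.116% at day 1. In YPS1009_Chr12 it was 0.135% and 0.137% in log phase and 0.237% and 0.256% at day 1, so that the order of the strains turned over without overlap. YPS1009_Chr15 had the highest share in log phase (0.358% and 0.362%) and fell to 0.134% and 0.125% at day 1. The share of YPS1009_Chr14 was 0.212% and 0.241% in log phase and 0.176% and 0.168% at day 1, and that of YPS1009_Chr4 was 0.230% and 0.211%, then 0.186% and 0.181%. At day 7 the 2 euploid cultures differed, with 0.185% (Wilson 95% interval 0.178% to 0.193%) and 0.283% (0.275% to 0.291%). The 4 day 7 libraries of YPS1009_Chr12 and YPS1009_Chr4 lay lower, between 0.105% and 0.137%. These intervals cover counting error only.

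**Figure D1:**
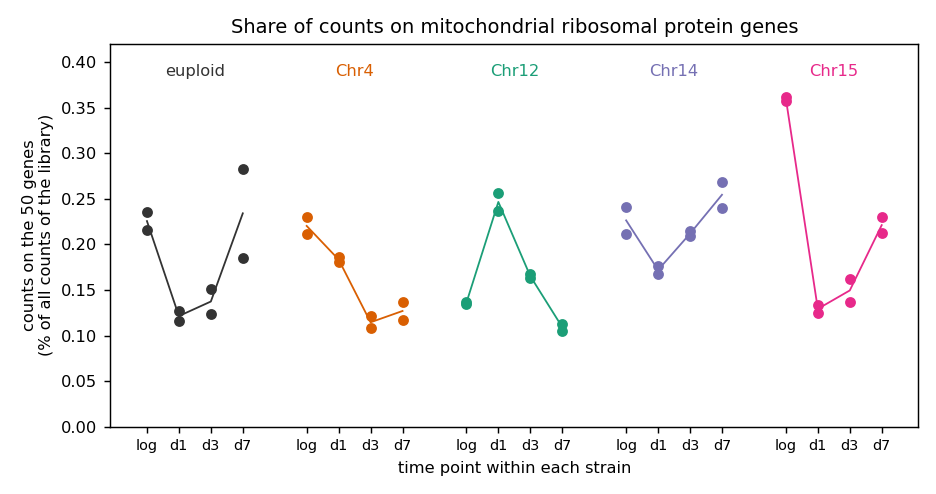
Share of all counts on the 50 genes (vertical axis, percent of the library) at the 4 times within each strain (horizontal axis); points are single libraries and lines join the means of 2. Euploid falls from a mean of 0.226% to 0.121% between log phase and day 1, and YPS1009_Chr12 rises from 0.136% to 0.247%.

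Levels in log-phase euploid cells are given as CPM (counts per unit of library size after TMM scaling) per kilobase of coding sequence, since longer messages collect more reads. The highest were MRPL33 (YMR286W), a large subunit protein (126 ± 1.4, SD, n = 2), MRPS9 (YBR146W), of the small subunit (126 ± 2.5), and MRPS18 (YNL306W), also of the small subunit (107 ± 2.3). The first 2 differed by less than their spread. The lowest of the tested genes were MRPL9 (32.6 ± 3.4), MRPL27 (28.2 ± 7.2) and MRPL51 (4.75 ± 0.22), all of the large subunit. MRPL51 overlaps YPR099C on the opposite strand by 323 bases, MRPL19 overlaps YNL184C on the same strand by 113, and MRP4 overlaps YHL005C on the opposite strand by 2 in R64. Whether the counting used strand is not stated, and the values of MRPL51 and MRP4 are uncertain for that reason. Strand could not separate MRPL19 from its same-strand neighbour, so its value is uncertain either way.

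The first question was how the genes behaved as euploid cells left log phase. At day 1 they fell together. Of the 49 genes tested, 37 were lower and 0 higher (edgeR's quasi-likelihood fit, with p adjusted after Benjamini and Hochberg over 5864 genes and called under 0.05), beside 35.0% of all genes tested that were lower and 34.3% that were higher. The median log2 difference over the members was -0.88, and over all genes -0.0006. Large and small subunit genes had similar medians, -0.98 and -0.84. Before adjustment 0 members were higher at p under 0.05 as well, and DESeq2's Wald test also gave 0, although 3 members had a positive difference.

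The deepest falls at day 1 were in genes of both subunits. MRPS8 (YMR158W), a small subunit protein, stood at 30.3 and 25.5 CPM in log phase and 5.47 and 6.17 at day 1, a log2 difference of -2.25 ± 0.37 (SE; adjusted p = 3.52e-06). MRPL20 (YKR085C), a large subunit protein without a bacterial counterpart, went from 51.6 and 45.6 CPM to 9.85 and 12.1 (-2.14 ± 0.27, adjusted p = 4.7e-08). For both genes every log-phase value lay above every day 1 value. MRPL32 (YCR003W) fell from 25.1 and 27.4 CPM to 4.74 and 7.01 (-2.12 ± 0.30, adjusted p = 4.41e-07). Its product is a large subunit protein that in yeast is matured by the m-AAA protease, which ties its processing to ribosome assembly.

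By day 3 the genes had split. In euploid 25 members were lower and 8 higher than in log phase, beside 41.4% and 38.7% of all genes. DESeq2 size factors gave 29 lower and 4 higher, so the number that rose depends on the scaling. The median was -0.70 (all genes -0.16), but the interquartile range had widened from 0.66 at day 1 to 2.64, and that over all genes from 2.35 to 4.19. The 14 small subunit genes had a median of -1.79, with 8 lower and 1 higher. The 35 large subunit genes had a median of -0.59, with 17 lower and 7 higher.

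Among the genes that fell, MRPL7 (YDR237W), the mitochondrial counterpart of a bacterial protein of the central protuberance, stood at 71.1 and 69.2 CPM in log phase and 1.03 and 1.83 at day 3. Those last values were 1 and 2 counts, and the fitted log2 difference was -5.55 ± 0.43 (adjusted p = 1.17e-12). MRPL4 (YLR439W), which lies near the exit of the peptide tunnel, fell from 51.2 and 43.7 CPM to 1.03 and 1.83 (-4.99 ± 0.58, adjusted p = 5.42e-09). Both therefore went from well-measured messages to 1 or 2 reads in a library. MRPL32 had 145 and 113 counts in log phase and 0 in both day 3 libraries, which makes it at least 9-fold lower when each library is set to a floor of 3 counts. MRP4 (YHL004W), a small subunit protein, fell from 102 and 92.7 CPM to 6.19 and 7.31.

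Among the genes that rose, MRPL28 (YDR462W), a large subunit protein found in mitochondria but not bacteria, stood at 21.5 and 20.4 CPM in log phase, 31.4 and 33.1 at day 1, and 159 and 158 at day 3 (2.92 ± 0.34, adjusted p = 5.52e-09). MRPS17 (YMR188C), of the small subunit, went from 30.3 and 26.9 CPM to 114 and 136 (2.13 ± 0.31, adjusted p = 3.96e-07). These 2 genes rose clear of any log-phase value. MRPL51 rose by 1.5 ± 0.69 (adjusted p = 0.0463) from 2.08 and 1.94 CPM to 3.09 and 8.22, values that rest on 3 to 12 counts, with the uncertainty of its overlapping neighbour. The other 5 higher members were MRPL16, MRPL19, MRPL24, MRPL27 and MRPL31, with log2 differences from 0.63 upward, all of the large subunit. MRPL31, which has no match to the motif, is an example: it fell to 9.85 and 10.9 CPM at day 1 from 31 and 28.9, and then stood at 55.7 and 62.1 at day 3.

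At day 7 the euploid split was similar in its members and narrower. There were 22 lower and 10 higher members, beside 38.2% and 37.5% of all genes, a median of -0.48 (all genes -0.02) and an interquartile range of 1.56 (all genes 3.01). MRPL28 (2.53 ± 0.33, adjusted p = 8.69e-08), MRPS17 (2.18 ± 0.31, adjusted p = 2.72e-07) and MRPL51 (1.94 ± 0.56, adjusted p = 0.00254) were the highest. MRPL7 (-2.43 ± 0.25, adjusted p = 5.77e-10), MRPL49 (-2.15 ± 0.29, adjusted p = 1.25e-07) and MRPL4 (-2.10 ± 0.33, adjusted p = 1.63e-06) were the lowest. The 2 cultures stood apart at this time: MRPL4 was at 1.86 CPM in one and 15.6 in the other, MRP4 at 7.42 and 32.3, and MRPL28 at 192 and 58.5. Over the members the median absolute log2 difference between the 2 cultures was 0.741 at day 7 against 0.104 in log phase. DESeq2 size factors gave 27 lower and 7 higher and total-count scaling 13 lower and 11 higher, and when the 2 groups were fitted alone, 10 members were called in place of 32.

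**Figure D2:**
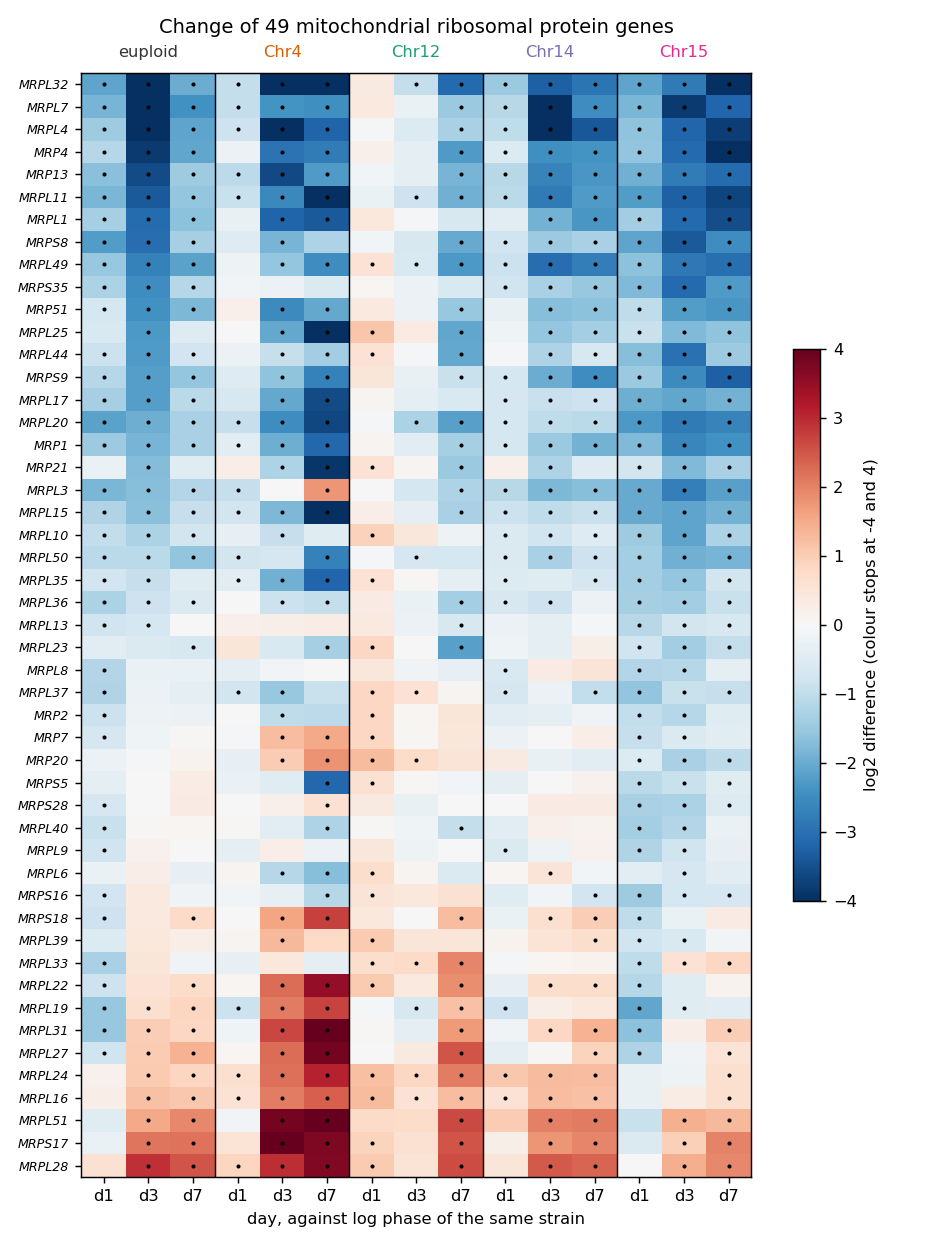
Log2 difference from log phase of the same strain (colour) for 49 genes (rows, ordered by euploid at day 3) at days 1, 3 and 7 in 5 strains (columns); dots mark adjusted p under 0.05. In euploid 37 genes are lower at day 1, and at day 3 the rows divide into 25 lower and 8 higher; in YPS1009_Chr12 21 are higher at day 1 and 11 are called at day 3.

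YPS1009_Chr12 followed another course. At day 1, 21 members were higher than in its own log phase and 0 lower, beside 30.5% and 31.3% of all genes, with a median of 0.44 (all genes -0.02) and a positive difference in 41 of 49. Leaving out the first log-phase culture of YPS1009_Chr12 reduced the count to 11. Examples are MRPL25 of the large subunit, with 12.8 and 15.2 CPM in log phase and 30.2 and 30.5 at day 1, and MRPL28, with 13.4 and 16.5 CPM and then 31.8 and 30.5. In both genes the day 1 values lay above the log-phase values. MRPL7, which had fallen in euploid, stood at 34.6 and 40.9 CPM in log phase and at 51 and 46.9 at day 1.

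The change between log phase and day 1 was compared between the strains in 1 model. It was larger in YPS1009_Chr12 than in euploid for 43 of 49 members and smaller for 0, beside 9.23% and 6.74% of all genes, and the median of the difference was 1.45 (all genes -0.02). All 49 members had a positive difference. The count was 43 or 44 with other scalings and between 30 and 42 when a culture was left out. The largest differences were in MRPL32 (2.49 ± 0.40, adjusted p = 6.79e-05) and MRPL7 (2.24 ± 0.30, adjusted p = 5.06e-06). The 6 members that did not pass the test included MRPL28 (0.44 ± 0.47, adjusted p = 0.593) and MRPL27 (0.78 ± 0.44, adjusted p = 0.252). Both time points contributed to it, since YPS1009_Chr12 was below euploid in log phase and above it at day 1.

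In log phase 25 members were lower in YPS1009_Chr12 than in euploid and 0 higher, beside 2.61% and 5.53% of all genes, with a median of -0.73 (all genes -0.03). The values of the members lay close together, with an interquartile range of 0.22. The largest falls were in MRPL37 (YBR268W; 26.3 and 23.3 CPM in euploid, 10.3 and 9.34 in YPS1009_Chr12, -1.34 ± 0.23, adjusted p = 0.000559), MRPL10 (-1.06 ± 0.21, adjusted p = 0.00182) and MRPL31 (-1.02 ± 0.29, adjusted p = 0.025), 3 proteins of the large subunit. Most single genes were near the threshold: 3 to 7 members were called when any 1 of the 4 cultures was left out, the fewest without the first culture of either strain and 5 and 7 without the second of euploid and YPS1009_Chr12, and 14 with scaling to the total count.

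At day 1 the order was reversed, with 28 members higher in YPS1009_Chr12 and 0 lower, beside 16.2% and 14.8% of all genes, and a median of 0.68 (all genes -0.01). MRPL15 (YLR312W-A; 20.4 and 19.9 CPM in euploid, 61 and 70.2 in YPS1009_Chr12, 1.70 ± 0.26, adjusted p = 1.01e-05) and MRPL4 (18.2 and 17.1, then 53.9 and 58.8, 1.67 ± 0.29, adjusted p = 6.79e-05) led, and both lie on the duplicated chromosome XII. MRPL32 on chromosome III came next (1.64 ± 0.32, adjusted p = 0.000247). Of the 47 members on other chromosomes 26 were higher, with a median of 0.67. Leaving out the second day 1 culture of euploid or of YPS1009_Chr12 reduced the 28 calls to 12.

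At day 3 the split seen in euploid was much shallower in YPS1009_Chr12. Against its own log phase 5 members were higher and 6 lower, beside 32.5% and 32.3% of all genes, and the interquartile range over the members was 0.73 against 2.64 in euploid. Over all genes this range was 2.02 against 4.19, so that it was narrower there too. With other settings the count of 11 ran from 5, without the first day 3 culture or the second log-phase culture, through 7 without the first log-phase culture, to 22 with DESeq2's Wald test and 23 with the 2 groups fitted alone. DESeq2 size factors gave 2 higher and 13 lower, and total-count scaling 11 higher and 1 lower. The 25 members that were lower at day 3 in euploid had a median of -0.35 in YPS1009_Chr12, within -1.27 to 0.44, and the 8 that were higher had a median of 0.56. MRPL20 (-1.27, adjusted p = 0.000213) was the lowest member of YPS1009_Chr12 and MRPL24 (0.82, adjusted p = 0.000903) the highest.

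Set directly against euploid at day 3, YPS1009_Chr12 had 19 members higher and 16 lower, beside 38.4% and 31.5% of all genes. The counts of 19 and 16 are near those shares, so they do not set the members apart. With total-count scaling they were 20 and 6. All 19 higher members were among the 25 lower in euploid by day 3. MRPL4 stood at 36.2 and 46.7 CPM beside 1.03 and 1.83 in euploid (4.79 ± 0.60, adjusted p = 7.43e-08), and MRPL7 at 29.2 and 33 beside 1.03 and 1.83 (4.38 ± 0.48, adjusted p = 8.32e-09). MRPL32 had 19 and 20 counts where euploid had 0 and 0, at least 2.61-fold higher with the floor of 3 counts in each euploid library. Of the 16 lower members, 8 were those called higher in euploid by day 3 and the other 8 had not been called in euploid. The grouping by euploid and the difference use the same euploid day 3 values and are not independent. Among the lower members, MRPL28 stood at 18.6 and 24.8 CPM beside 159 and 158 (-2.87 ± 0.35, adjusted p = 4.87e-08), MRPL31 at 8.79 and 14.1 beside 55.7 and 62.1 (-2.38 ± 0.35, adjusted p = 1.14e-06), and MRPS17 at 28.8 and 24.8 beside 114 and 136 (-2.22 ± 0.32, adjusted p = 8.27e-07). In all of these the 2 strains did not overlap. The median over the members, -0.14 (all genes 0.22), turned to 0.06 with DESeq2 size factors and to 0.45 with total-count scaling. The change from log phase to day 3 differed from euploid in 20 members upward and 4 downward, beside 33.2% and 26.1% of all genes, and 29 and 2 with total-count scaling. The 4 downward were MRPL28 (-2.38), MRPS17 (-1.51), MRPL31 (-1.36) and MRPL19 (-1.27), which were among the members that had risen in euploid.

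At day 7 YPS1009_Chr12 showed the split as well, with 11 members higher and 21 lower than in log phase, beside 35.6% and 38.3% of all genes, and an interquartile range of 2.02 (all genes 3.51). MRPL28 had reached 120 and 69 CPM and MRPS17 134 and 71.6, whereas MRPL7 had come down to 17.8 and 10.4. Against euploid at day 7, 3 members were higher and 12 lower, beside 17.9% and 15.4% of all genes. The higher ones were MRPL33 (1.17 ± 0.28, adjusted p = 0.00185), MRPL27 (0.97 ± 0.30, adjusted p = 0.0137) and MRPL24 (0.57 ± 0.22, adjusted p = 0.0492, with -0.21 under total-count scaling). The lowest were MRPL23 (-2.35 ± 0.49, adjusted p = 0.000497), MRPL44 (-2.09 ± 0.56, adjusted p = 0.00525) and MRP21 (-1.73 ± 0.47, adjusted p = 0.00595). MRPL23 had 0 and 7 counts in these YPS1009_Chr12 libraries. With only these 4 libraries in the fit no member was called, and total-count scaling called 0 higher and 35 lower. Without the first YPS1009_Chr12 culture of day 7 the count was 10. The change from log phase to day 7 differed from euploid in 3 members upward and 0 downward, beside 10% (589 of 5864) and 8.05% of all genes, in 10 when either euploid day 7 culture was left out and in 7 without the second YPS1009_Chr12 culture of day 7.

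**Figure D3:**
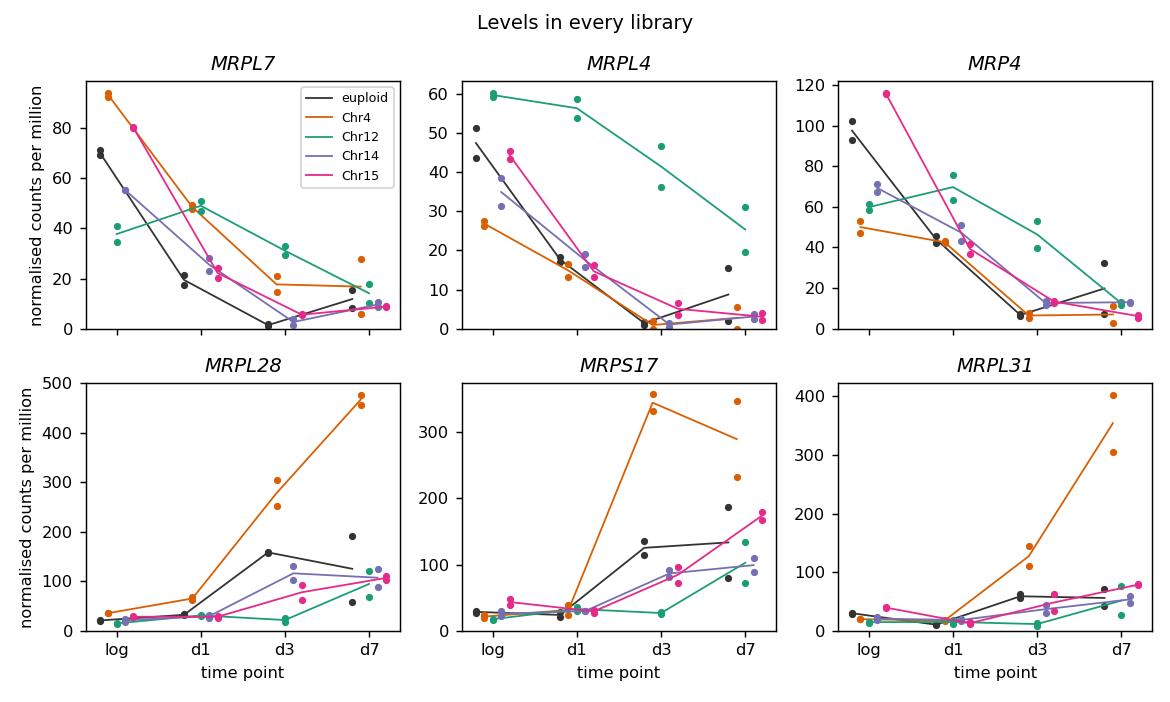
Normalised level in CPM (vertical axes, from 0) of 6 genes at the 4 times (horizontal axes); points are libraries, lines join means of 2, colours are strains. At day 3 MRPL7 and MRPL4 are at 1.03 and 1.83 in euploid and at 29.2 or more in YPS1009_Chr12, and MRPL28 is at 158 or more in euploid and at most 24.8 in YPS1009_Chr12.

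The other 3 aneuploids kept the euploid pattern at day 3 more closely. Spearman's rho between a strain's changes and those of euploid, each against its own log phase over 49 genes, was 0.958 in YPS1009_Chr14, 0.957 in YPS1009_Chr15, 0.902 in YPS1009_Chr4 and 0.645 in YPS1009_Chr12. These are descriptions across genes of libraries whose low members rest on few counts. At day 7 the values were 0.941, 0.94, 0.774 and 0.851 in the same order, and at day 1 0.852, 0.904, 0.786 and 0.743. Across the 5 strains 13 members were lower at day 7 in every one, among them MRPL4, MRPL7, MRPL11, MRPL20, MRPL32, MRPL49, MRP1, MRP4 and MRP13, and 7 were higher in every one: MRPL16, MRPL24, MRPL27, MRPL28, MRPL31, MRPL51 and MRPS17. Of these, MRPL51 overlaps another gene and rested on few counts, with 5 and 2 in YPS1009_Chr12 at day 7. Over all genes 26.7% were lower and 22.4% higher in all 5 strains at that time, so that the 13 of 49 are near the background and the 7 of 49 below it. At day 3 only MRPL11, MRPL20, MRPL32 and MRPL49 were lower in all 5 strains, and none was higher in all 5, beside 22.6% and 18.9% of all genes.

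**Figure D4:**
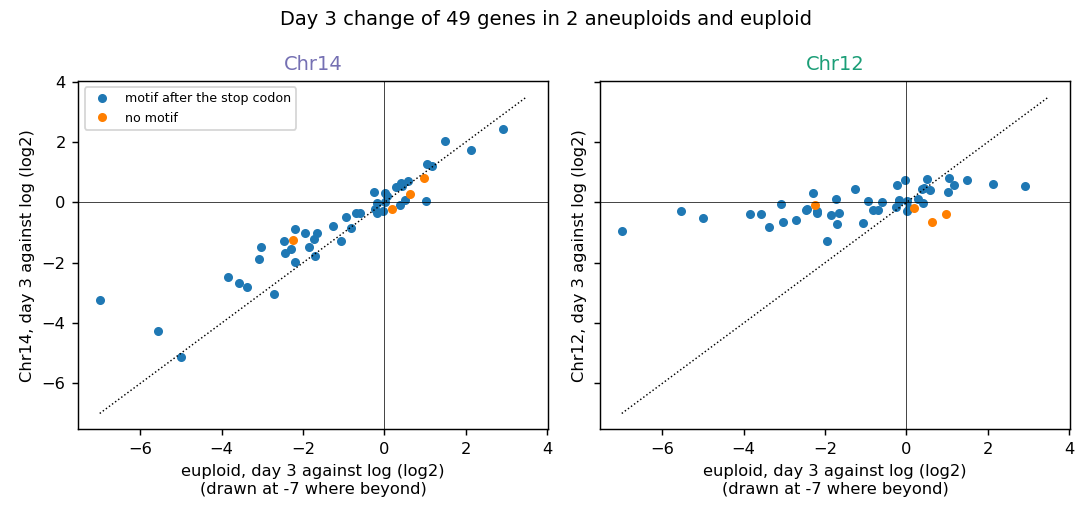
Log2 change from log phase to day 3 of 49 genes in euploid (horizontal axes) and in YPS1009_Chr14 (left) or YPS1009_Chr12 (right, vertical axes); the dotted line marks equal change and orange points are the 4 genes with no motif match. The genes follow the order of euploid in YPS1009_Chr14, with a Spearman's rho of 0.958, and lie within -1.27 to 0.82 in YPS1009_Chr12; MRPL32 is drawn at the left edge.

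In YPS1009_Chr14 most of the called members were lower than in log phase at each time. At day 1, 2 members were higher and 23 lower than in log phase, beside 34.7% and 33.1% of all genes, with a median of -0.44. At day 3 there were 9 higher and 23 lower (beside 38.4% and 39.5%, median -0.36, and 5 and 30 with DESeq2 size factors) and at day 7 10 higher and 24 lower (beside 38.8% and 39.1%, median -0.51, and 15 and 16 with total-count scaling). The 2 genes that rose at day 1 were MRPL16 and MRPL24, both of the large subunit. The day 1 count of 25 fell to 13 without the second day 1 culture and to 16 without the second log-phase culture. None of its changes from log phase differed from those of euploid at day 1, 3 or 7 in the edgeR test, beside 0.426%, 1.96% and 1.55% of all genes upward and 0.648%, 1.47% and 2.80% downward. Before adjustment 12, 9 and 4 members had p under 0.05, and DESeq2's Wald test gave 4, 1 and 1 members. The day 1 difference was nevertheless positive in 48 of 49 members, with a median of 0.55 (all genes 0.05), and at day 7 12 members were called without the first euploid culture of that day and 1 without the second.

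In YPS1009_Chr15 the fall at day 1 was the deepest. All 49 members had a negative difference, 43 passed the test as lower and 0 as higher, beside 32.2% and 34.0% of all genes, and the median was -1.36 (all genes 0.04). MRPL32, for example, stood at 32.1 and 32.9 CPM in log phase and 7.47 and 7.42 at day 1, and MRPL23 at 132 and 121 and then 75.7 and 70.1. At day 3, 39 were lower and 4 higher (beside 39.6% and 36.8%, median -1.40), the higher ones being MRPL28 (1.45), MRPL51 (1.43), MRPS17 (0.95) and MRPL33 (0.59), and at day 7 31 lower and 8 higher (beside 40.9% and 38.4%, median -0.93). Without the first YPS1009_Chr15 culture, whose early libraries held α-specific transcripts, the counts were 41 lower at day 1, 33 lower and 1 higher at day 3, and 27 lower and 4 higher at day 7, with medians of -1.47, -1.31 and -0.85. The change from log phase differed from euploid in 0 members at day 1 (beside 2.54% lower and 1.26% higher over all genes, with 6 lower and 0 higher at an unadjusted p under 0.05 and 0 with DESeq2's Wald test), in 13 downward and 1 upward at day 3 (beside 10.6% and 14.3%) and in 13 downward and 1 upward at day 7 (beside 9.48% and 4.13%). The one upward was MRPL32 at day 3 and MRPL33 at day 7. The last 2 counts of 14 were 5 and 1 without that culture at any time. With DESeq2 size factors the day 3 differences were 6 downward and 2 upward. The day 3 count was 6 or 7 without either euploid culture of day 3, the second euploid log-phase culture or the second YPS1009_Chr15 culture of day 3, and 9 without the second log-phase culture of YPS1009_Chr15. The day 7 count was 24 without the first euploid culture of day 7, 3 without the second, 4 and 9 without the first and second YPS1009_Chr15 cultures of day 7, 9 without its first log-phase culture and 8 without the second euploid one.

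Against euploid in log phase, YPS1009_Chr15 had 5 members higher and 0 lower, beside 11.4% and 3.70% of all genes, with a median of 0.39 (all genes -0.06) and positive differences in 47 of 49. MRPL23 on the duplicated chromosome XV led (YOR150W; 46.2 and 43.9 CPM in euploid, 132 and 121 in YPS1009_Chr15, 1.49 ± 0.23, adjusted p = 2.26e-05), followed by MRPL27 (1.01 ± 0.26, adjusted p = 0.00723) and MRPL44 (0.69 ± 0.23, adjusted p = 0.0347). One member was called without the first YPS1009_Chr15 culture at all times, 1 to 3 when any 1 library was left out, and 16 with total-count scaling. At day 1 MRPL23 alone was higher and 0 members lower, beside 4.42% and 0.273% of all genes, and without the first day 1 culture of YPS1009_Chr15 or the second of euploid it was not called. At day 3, 2 were higher and 6 lower (beside 17.3% and 11.6%), and at day 7 2 higher and 12 lower (beside 12.5% and 17.3%). MRPL7 (1.92 ± 0.66, adjusted p = 0.0382) was higher at day 3, with 9 and 13 counts beside 1 and 2 in euploid. MRPL32 had 7 and 11 counts where euploid had 0 and 0, at least 1.56-fold higher. MRPL28 (-1.03 ± 0.32, adjusted p = 0.017), MRPL19 (-0.86 ± 0.25, adjusted p = 0.011) and MRPL6 (-0.83 ± 0.26, adjusted p = 0.0177) were the lowest. At day 7 MRP4 (-1.91 ± 0.36, adjusted p = 0.000276), MRPL11 (-1.79 ± 0.38, adjusted p = 0.000722) and MRPL4 (-1.77 ± 0.50, adjusted p = 0.00791) were lowest, and MRPL23 and MRPL33 (0.87 ± 0.25, adjusted p = 0.00858) were higher. MRPL11 overlapped between the strains, at 4.72 and 6.41 CPM beside 5.57 and 26.3 in euploid. So did MRPL4, at 3.99 and 2.14 CPM beside 1.86 and 15.6, and its difference turned positive without the second euploid culture. The day 7 count ran from 4, without the second euploid culture, to 23, without the first, and was 6 without the first YPS1009_Chr15 culture. The day 3 count ran from 2, without either euploid culture, through 3 without the second YPS1009_Chr15 culture and 5 without the first, and total-count scaling turned it to 5 higher and 0 lower and DESeq2 size factors to 4 and 4.

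YPS1009_Chr4 fell least at day 1 among the strains that fell, with 13 members lower and 3 higher, beside 29.6% and 33.1% of all genes, and a median of -0.23 (all genes 0.07). The 3 that rose were MRPL16, MRPL24 and MRPL28, and with DESeq2 size factors 21 were lower and 0 higher. The count of 16 was 9 without the second log-phase culture and 10 without the first culture of either time. At day 3, 24 were lower and 13 higher (beside 41.0% and 34.8%, and 36 and 9 with total-count scaling), and at day 7 25 lower and 14 higher (beside 42.5% and 33.3%). The spread was the widest of the strains by day 7, with an interquartile range of 4.31 (all genes 4.94). MRPL28 had climbed to 477 and 457 CPM at day 7 from 35.8 and 35.6, and MRPL31 to 403 and 306 from 19.8 and 19.8, whereas MRPL32 and MRPL25 had 0 counts in both day 7 libraries. These libraries stood apart in composition: their TMM factors were 0.316 and 0.381, beside 0.619 to 1.62 for the other 8 of day 7, and the median over all genes was -0.73. With total-count scaling 36 members were lower and 10 higher.

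Against euploid, YPS1009_Chr4 had 9 members lower and 0 higher in log phase (beside 2.20% and 7.45% of all genes, median -0.46), led by MRP4 (102 and 92.7 CPM in euploid, 47 and 53.1 in YPS1009_Chr4, -0.96 ± 0.23, adjusted p = 0.00662), MRPL4 (-0.82 ± 0.26, adjusted p = 0.0424) and MRPL8 (-0.81 ± 0.24, adjusted p = 0.0259). Leaving out any of the 4 cultures left 0 or 1 of these calls, and total-count scaling called 2 members, both higher. One day on, 9 members were higher and 0 lower (beside 11.3% and 5.66%, median 0.33), 7 of them on the duplicated chromosome IV, and 5 without the second euploid culture. At day 3, 11 were higher and 4 lower (beside 17.7% and 13.3%). MRPL7 on chromosome IV (3.56 ± 0.63, adjusted p = 5.79e-05), MRPL51 (1.81 ± 0.64, adjusted p = 0.0311) and MRP20 on chromosome IV (1.60 ± 0.30, adjusted p = 0.000116) led, and MRPL37 (-1.93 ± 0.50, adjusted p = 0.0033), MRPL6 (-1.89 ± 0.37, adjusted p = 0.000186) and MRPS5 (-1.03 ± 0.37, adjusted p = 0.0349) were lowest. MRPL7 rested on 11 and 8 counts beside 1 and 2 in euploid, and MRPL51 on 14 and 8 beside 3 and 9. The sizes of these differences are therefore uncertain. Without the first euploid culture 8 members were called at day 3, without the first YPS1009_Chr4 culture 9, with total-count scaling 1 was higher and 15 lower, and with DESeq2 size factors 14 were higher and 2 lower.

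At day 7, 14 members were higher and 17 lower in YPS1009_Chr4 than in euploid, beside 22.6% and 31.8% of all genes, and the median over all genes was -0.59. MRPL31 (2.72 ± 0.30, adjusted p = 2.17e-08), MRPL27 (2.53 ± 0.28, adjusted p = 2.09e-08) and MRPL22 (2.41 ± 0.28, adjusted p = 4.17e-08), all of the large subunit and on chromosomes other than IV, were the highest. MRPL25 had 0 and 0 counts beside 1 and 60 in euploid, MRPL32 0 and 0 beside 3 and 25, and MRPL15 0 and 1 beside 15 and 91. The upward calls depended on the scaling, since total-count scaling gave 2 higher and 41 lower, and 10 members were called with only these 4 libraries. The change from log phase differed from euploid in 6 members upward and 0 downward at day 1 (beside 1.96% and 1.43%), in 14 and 1 at day 3 (beside 11.3% and 8.70%) and in 13 and 12 at day 7 (beside 16.6% and 24.2%). Without 1 culture the day 1 count was 0 to 2, whichever it was. The day 3 count was 8 without the second log-phase culture of YPS1009_Chr4 and 9 without the first of euploid, and total-count scaling turned it to 1 upward and 13 downward. The member downward at day 3 was MRPL6 (-1.41 ± 0.44, adjusted p = 0.021). At day 7 the count was 16 without the second euploid culture, with 13 upward and 6 downward under DESeq2 size factors and 2 upward and 39 downward under total-count scaling.

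YPS1009_Chr14 against euploid had 4 members higher and 0 lower in log phase (beside 4.45% and 0.563% of all genes), 7 and 0 at day 1 (beside 4.95% and 1.79%), 5 and 2 at day 3 (beside 8.94% and 6.31%) and 6 and 9 at day 7 (beside 7.21% and 9.11%). With total-count scaling they were 9 and 0 at day 3 and 5 and 4 at day 7. All 4, 7 and 5 higher members of the first 3 times lay on the duplicated chromosome XIV, as did 5 of the 6 at day 7. The log-phase calls did not survive leaving out a culture, with 0 or 1 left, and 2 or 3 members were called at day 3 without any 1 culture. MRP20 (-1.01 ± 0.33, adjusted p = 0.0385) and MRPL33 (-0.98 ± 0.28, adjusted p = 0.0184) were lower at day 3. At day 7 MRPL4 (-1.74 ± 0.49, adjusted p = 0.015), MRP20 (-1.31 ± 0.29, adjusted p = 0.00256) and MRP13 (-1.30 ± 0.38, adjusted p = 0.0188) were lowest. MRPL4 overlapped between the strains, at 3.79 and 2.44 CPM beside 1.86 and 15.6, and its difference turned to 0.82 without the second euploid culture. That day 7 count ran from 5, without the second culture of YPS1009_Chr14, through 9 without the first of it or the second of euploid, to 25 without the first euploid culture.

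Members on a duplicated chromosome stood above the other members of the same strain in all 16 comparisons with euploid, by medians. In YPS1009_Chr14 all 7 (MRPL10, MRPL17, MRPL19, MRPL22, MRPL50, MRPS18 and MRP7) were higher at day 1, with a median of 1.22, beside 53.6% of the 399 genes of chromosome XIV and their median of 0.95. MRPL22 (YNL177C), near the peptide tunnel, (1.41 ± 0.28, adjusted p = 0.00121), MRPL50 (1.24 ± 0.26, adjusted p = 0.00227) and MRPL19 (1.52 ± 0.25, adjusted p = 0.000306, with 9.85 and 12.6 CPM in euploid and 30.1 and 35.4 in YPS1009_Chr14) led. The 42 members on other chromosomes had a median of 0.28 and none was called. In log phase the 7 ranged from 0.48 to 0.93 and 4 were called, beside 43.4% of the chromosome's genes, led by MRPL22 (0.93 ± 0.26, adjusted p = 0.0291), MRPL19 (0.84 ± 0.20, adjusted p = 0.00902) and MRPL50 (0.74 ± 0.22, adjusted p = 0.044). At days 3 and 7 5 of the 7 were higher, beside 48.9% and 46.1% of the chromosome's genes, with medians of 0.92 and 0.91. MRPL17 (1.79 ± 0.42, adjusted p = 0.00525), MRPL10 (1.20 ± 0.27, adjusted p = 0.00326) and MRPL22 (1.06 ± 0.28, adjusted p = 0.0106) were highest at day 3, and MRPL50 (1.48 ± 0.30, adjusted p = 0.00121), MRP7 (0.97 ± 0.25, adjusted p = 0.00839) and MRPL10 (0.96 ± 0.23, adjusted p = 0.00526) at day 7.

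The 8 members on chromosome IV (MRPL1, MRPL7, MRPL11, MRPL28, MRPL35, MRPS28, MRP1 and MRP20) were less raised in log-phase YPS1009_Chr4 than their chromosome. None was called, beside 49.5% of 766 genes, and their median was 0.39 where that of the chromosome was 0.81. The 41 other members had a median of -0.48, so that the gap between the sets was close to that of the chromosome. At day 1, 7 of the 8 were higher, beside 58.7% of the chromosome's genes, with a median of 1.12. MRP1 (YDR347W), a small subunit protein particular to mitochondria, stood at 30.7 and 29.5 CPM in euploid and 80.6 and 71.9 in YPS1009_Chr4 (1.34 ± 0.19, adjusted p = 2.28e-05). MRPL7 (1.32 ± 0.22, adjusted p = 0.000133) and MRPL1 (1.29 ± 0.26, adjusted p = 0.000648) followed, and MRP20 (0.45 ± 0.24, adjusted p = 0.228) did not pass. At day 3, 2 of the 8 were higher, beside 42.7%, and at day 7 3 were higher and 3 lower, beside 40.6% higher. By then these 8 genes ranged from -3.69 to 2.23.

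The 2 members on chromosome XII, MRPL4 and MRPL15, were at 0.33 ± 0.25 (adjusted p = 0.694) and 0.25 ± 0.23 (adjusted p = 0.79) in log-phase YPS1009_Chr12, where the chromosome's 490 genes had a median of 0.92 and 54.9% were higher. The 47 other members had a median of -0.76. At day 1 both were called, beside 64.9% of the chromosome, and at day 3 both, beside 61.8%. At day 7 neither was, beside 50% (245 of 490). MRPL23, the only member on chromosome XV, was called in YPS1009_Chr15 in log phase (beside 50.6% of 532 genes), at day 1 (1.11 ± 0.24, adjusted p = 0.00563, beside 33.6%) and at day 7 (1.18 ± 0.27, adjusted p = 0.00139, beside 44.7%), and stood at 0.67 at day 3, beside 42.5%.

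**Figure D5:**
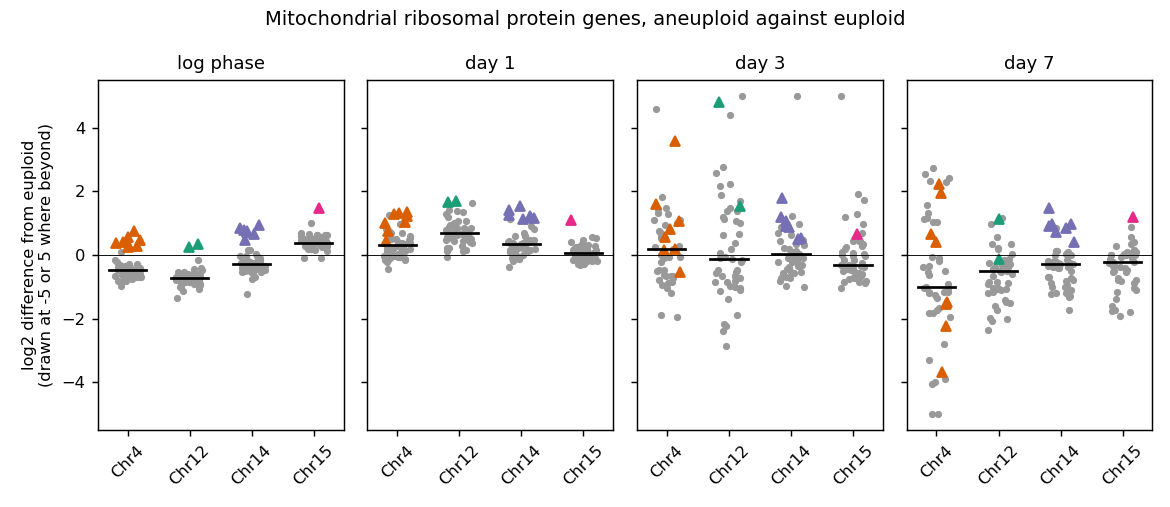
Log2 difference of each aneuploid from euploid (vertical axis) for 49 genes at the 4 times (panels); triangles are genes on the duplicated chromosome, grey points the others, and bars medians of all 49, and values beyond the axis are drawn at its edge. In YPS1009_Chr12 the median is -0.73 in log phase and 0.68 at day 1, and the 7 triangles of YPS1009_Chr14 lie between 1.12 and 1.52 at day 1.

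Other genes of mitochondrial translation are given beside the members by list. In euploid at day 1, 17 of 26 further mitochondrial ribosomal genes with other names were lower and 2 higher (median -0.81), and 9 of 13 mitochondrial tRNA synthetase genes were lower and 0 higher (median -0.80). Of 13 mitochondrial translation factor genes 6 were lower and 4 higher (median -0.44), and of 14 genes for activators of mitochondrial mRNAs 4 were lower and 3 higher (median -0.13), where 35.0% of all genes were lower and 34.3% higher. In YPS1009_Chr12 at day 1, 13 of the 26 and 6 of the 13 were higher and none lower, with medians of 0.62 and 0.45, and of the translation factors and the activators 10 and 8 were higher and 0 and 1 lower, with medians of 0.78 and 0.73, where 30.5% of all genes were higher and 31.3% lower. The genes of the respiratory chain and ATP synthase in the nucleus went the other way in euploid, with 32 of 37 higher and 1 lower at day 1 (median 1.09), and in YPS1009_Chr12 36 of 37 were higher (median 2.81). The 138 cytosolic ribosomal protein genes fell in both strains, with medians of -3.07 and -2.03. By day 7 in euploid 5 of the 37 respiratory genes were higher and 21 lower. Of the 49 members 10 were higher and 22 lower, beside 37.5% and 38.2% of all genes. VAR1, the only mitochondrial ribosomal protein encoded in the yeast mitochondrial genome, did not reach the minimum of counts. Of the 7 other mitochondrial genes listed, 6 were higher at day 1 in euploid and 0 lower.

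Only 4 tested members lacked the TGTANATA motif, and the medians with and without it are given as descriptions. At day 1 the 45 with a match had a median of -0.88 in euploid and the 4 without one -1.19. At day 3 the medians were -0.82 and 0.40, and at day 7 -0.49 and 0.41. In YPS1009_Chr4 they were -0.87 and 1.16 at day 3 and -1.22 and 1.24 at day 7. In YPS1009_Chr12 at day 1 they were 0.45 and 0.24. The 766 other tested genes with a match had medians of -0.14 in euploid and 0.15 in YPS1009_Chr12 at day 1, and the 4860 without one 0.02 and -0.05. As a description across the 49 genes, which share their libraries, Spearman's rho between coding length and the change by day 3 was -0.383 in euploid and -0.257 in YPS1009_Chr12, and over all genes 0.0298 and 0.0225.

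Over all 20 groups MRPL7, MRPL32 and MRPL25 had the widest range of mean levels. MRPL7 ran from 1.43 CPM in euploid at day 3 to 93.1 in YPS1009_Chr4 in log phase. MRPL25 (YGR076C), a large subunit protein of yeast mitochondria, was at 0 in YPS1009_Chr4 at day 7 and at 30.4 in YPS1009_Chr12 at day 1. The narrowest ranges were those of MRPL9, from 14.3 CPM in YPS1009_Chr15 at day 1 to 32.8 in the same strain in log phase, MRPL39, from 12.4 to 32.4, and MRPL13, from 22.7 to 62.2.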

How the data were processed

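The authors deposited raw read counts per gene for 40 libraries. Per the Methods and the submitters' processing notes, rRNA-depleted stranded libraries were trimmed (Trimmomatic 0.39), mapped with BWA 0.7.12-r1039 (bwa-meme in the Methods) to S288c with YPS1009 SNPs, and counted with HTSeq 0.7.2. The release of S288c is not given in the sources used here, so no coordinates are printed. The table holds no spike-in genes, so the study's per-cell scaling was not used here. RefSeq R64 named 6025 of 6714 genes.

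Counts were fitted with edgeR 4.0.16 (limma 3.58.1, R 4.3.3; TMM, 1 coefficient per group, no replicate block) for 5864 genes that reached 10 counts in 2 or more libraries. The Benjamini-Hochberg adjustment ran over all genes of a comparison, and adjusted p under 0.05 was called. There were 15 comparisons with log phase, 16 with euploid and 12 differences of changes. A standard error is the log2 difference over the root of F. Alternatives were DESeq2 1.42.0 (Wald test and size factors), total-count scaling, no filter, a replicate block, 2 groups alone each culture left out and, chosen after seeing the data, YPS1009_Chr15 without its first culture. The tests were checked on simulated counts for 1 comparison, euploid at day 1 against log phase. Changes were set in well-counted genes with the same dispersion in all groups. Low counts of the late samples were therefore not covered. The floor is 3 counts in each library.

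Members and gene lists were chosen with earlier results of these data known. Genes named with values were those on a duplicated chromosome, the 3 called members farthest in each direction per euploid time and per comparison with euploid, calls against the main direction where over 80% went 1 way, the extremes of level and of range, and members failing the filter. Others named as examples were chosen after their values were seen.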

Additional observations from a re-analysis of the deposited data

Results flagged for a closer look

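The change since log phase differed between an aneuploid strain and euploid, by a test of that difference (edgeR, adjusted p under 0.05 over all genes), in at least 1 of the 49 members in 8 of the 12 comparisons. In YPS1009_Chr12 there were 43 members at day 1, all changing more upward than in euploid, 24 at day 3 (20 upward and 4 downward) and 3 at day 7, all upward. The shares of all genes for these comparisons are given in the Results. Only the 43 of day 1 stood far above their share. The 20 upward at day 3 were near theirs, and the 4 downward were below it. The 3 at day 7 were below their share too, so the upward counts of days 3 and 7 do not set the members apart. In YPS1009_Chr4 there were 6 at day 1, all upward, 15 at day 3 (14 upward and 1 downward) and 25 at day 7 (13 upward and 12 downward). Here 1.96% of all genes went upward and 1.43% downward at day 1. The shares were 11.3% and 8.70% at day 3, and 16.6% and 24.2% at day 7. Most of the 6 YPS1009_Chr4 calls of day 1 were lost when any 1 culture was left out. In YPS1009_Chr15 there were 14 at day 3 and 14 at day 7, each with 1 upward and 13 downward. Of all genes 14.3% went upward and 10.6% downward at day 3, and 4.13% and 9.48% at day 7. Most of these YPS1009_Chr15 calls were lost without its first culture, whose early libraries held α-specific transcripts. Without that culture the median difference over the members was -0.65 at day 3 and -0.64 at day 7 (all genes 0.07 and -0.12). The 12 comparisons share the 8 euploid libraries.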

How the results depend on the processing

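Of the 43 counts of called members, 42 stayed within 1.5 times with DESeq2 size factors and 41 without the filter on low counts. With DESeq2's Wald test 35 did, with total-count scaling 33, and with only the 2 groups compared 19 of 31. The medians over the members held less well. Of 31 medians, 15 moved and 1 turned with DESeq2 size factors. Total-count scaling moved 15 and turned 4, and 8 moved without the filter. The causes of the changes were not tested. Given below are the counts that moved and the medians that turned, whereas most medians that only moved are not listed. With DESeq2 size factors, the difference of changes in YPS1009_Chr15 at day 3 gave 8 members in place of 14, and the median of YPS1009_Chr12 against euploid at day 3 turned from -0.14 to 0.058 (0.058 with the Wald test too). Of the higher and lower members, this scaling gave 4 and 29 for euploid at day 3, 7 and 27 at day 7, 0 and 21 for YPS1009_Chr4 at day 1 and 5 and 30 for YPS1009_Chr14 at day 3.

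Scaling to the total count moved the median over all genes by more than any other setting. Against euploid it gave 2 members in YPS1009_Chr4 in log phase, 14 in YPS1009_Chr12 in log phase and 35 at day 7, 9 in YPS1009_Chr14 at day 7, and 16 in log phase and 5 at day 3 in YPS1009_Chr15. For differences of changes it gave 1 at day 1 and 41 at day 7 in YPS1009_Chr4, 8 at day 7 in YPS1009_Chr12 and 7 at day 3 in YPS1009_Chr15. It turned the median of YPS1009_Chr12 at day 3 to 0.24 against log phase and to 0.45 against euploid, that of YPS1009_Chr4 against euploid at day 3 to -0.65, that of YPS1009_Chr15 to 0.19, and MRPL24 in YPS1009_Chr12 against euploid at day 7 to -0.21. Without the filter, the differences of changes gave 1 member in YPS1009_Chr4 at day 1 and 7 in YPS1009_Chr15 at day 3.

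DESeq2's Wald test gave 22 members for YPS1009_Chr12 at day 3 against log phase. In log phase against euploid it gave 20 in YPS1009_Chr4, 8 in YPS1009_Chr14 and 11 in YPS1009_Chr15, and for differences of changes 14 in YPS1009_Chr4 at day 1 and 4, 1 and 1 in YPS1009_Chr14. With only the 2 groups compared, which leaves 2 residual degrees of freedom, the counts were 10 for euploid at day 7, and 32 at day 1 and 23 at day 3 for YPS1009_Chr12. Against euploid they were 32 in log phase and 10 at day 7 for YPS1009_Chr4 (median -0.034 at day 3), 45 and 0 for YPS1009_Chr12, 11 and 0 for YPS1009_Chr14, and 44, 2 and 0 in log phase, at day 3 and at day 7 for YPS1009_Chr15.

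Leaving out 1 library at a time left 145 of 220 counts within 1.5 times. Against log phase the range was 9 to 14 for YPS1009_Chr4 at day 1, 11 to 16 and 5 to 8 for YPS1009_Chr12 at days 1 and 3, and 13 to 20 for YPS1009_Chr14 at day 1. Against euploid it was 0 to 1, 5 to 8 and 8 to 11 for YPS1009_Chr4 in log phase and at days 1 and 3, 3 to 7 and 12 to 20 for YPS1009_Chr12 in log phase and at day 1, 0 to 1, 2 to 3 and 5 to 25 for YPS1009_Chr14 in log phase and at days 3 and 7, and 1 to 3, 0 to 1, 2 to 5 and 4 to 23 for YPS1009_Chr15 at the 4 times. For differences of changes it was 0 to 2, 8 to 12 and 16 to 27 for YPS1009_Chr4, 2 to 10 for YPS1009_Chr12 at day 7, 0 to 1 and 0 to 12 for YPS1009_Chr14 at days 1 and 7, and 6 to 15 and 3 to 24 for YPS1009_Chr15 at days 3 and 7. The lone sample of an arm was then assumed to vary like the other groups. The median of YPS1009_Chr4 against euploid at day 3 ran from 0 without its first culture to 0.38 without its second. Without the second euploid culture of day 7, the day 7 medians turned to 0.033 in YPS1009_Chr14 and 0.024 in YPS1009_Chr15, with lowest values of -0.37 and -0.22 over the libraries left out, and MRPL4 turned to 0.82 and 0.79, with lowest values of -2.22 and -2.35. Without YPS1009_Chr15 replicate 1 at all times, an alternative chosen after seeing the data, the counts against euploid were 1, 0, 4 and 6, and the differences of changes gave 0, 5 and 1.

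Replicate numbers were not used as pairs. Deviations of same-numbered samples correlated between -0.519 and 0.418 over 31 comparisons, with a median of 0.0173. In YPS1009_Chr15, however, the first cultures of log phase and day 1 both held α-specific transcripts, so same-numbered samples there may belong together. The replicate block was common to all strains and could not test pairing within 1 strain. With a replicate block no count moved by over 1.5 times (27 in place of 25 for YPS1009_Chr12 in log phase against euploid), and of the named members 1 lost its call, MRPL24 in YPS1009_Chr12 at day 7. Depth limits the late samples most, where a member had a median of 4.5 counts in the shallowest library.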
